A study of Mus musculus with 12 samples.

Results

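Lrg1, Ffar2 and Sorl1 are 3 of the 47643 gene identifiers measured in peritoneal macrophages (Mϕ) sorted late in a sterile peritonitis. They were chosen by their normalized counts, as genes whose mRNA was higher in F4/80lo Mϕ of mice given compound III than in those given vehicle, with a difference that was large against the replicate spread. That contrast therefore describes the 3 genes and is not tested here. The contrast in F4/80hi Mϕ was not used to choose them and is tested.

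Female C57BL/6 mice, 8 to 12 weeks old, received zymosan A, a yeast cell wall preparation that causes a self-limiting peritonitis, at 5 mg/kg into the peritoneal cavity. From day 1 they were given a daily injection of vehicle (VEH) or of 25 mg/kg compound III (CIII), an inhibitor of mPGES-1, the inducible enzyme that makes prostaglandin E2. At day 6 the peritoneal cells were sorted as CD45+ CD11b+ cells low in F4/80 and MerTK and high in MHCII, after Ly6G+ neutrophils had been separated (F4/80lo Mϕ), or high in F4/80 and MerTK (F4/80hi Mϕ). There were 3 libraries for each of the 4 groups, 12 in all, and CD11c+ MHCII+ dendritic cells had been gated out beforehand. All mice had peritonitis, no untreated animals were among the groups, and an inhibitor given to the whole animal may act on cells other than the sorted Mϕ. The sources used here do not say how many mice stand behind a library, so p-values measure the spread between these libraries.

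Lrg1 encodes leucine-rich alpha-2-glycoprotein 1, a secreted glycoprotein that is made in the acute-phase response, is induced through IL-6 and STAT3, and modulates TGF-beta signalling. Ffar2 encodes a G protein-coupled receptor for short-chain fatty acids such as acetate and propionate, which is found on several kinds of myeloid cell and signals through Gi and Gq proteins. Sorl1 encodes a sorting receptor with a VPS10 domain and LDL receptor repeats, which moves cargo such as the amyloid precursor protein between the Golgi apparatus and endosomes with the help of the retromer complex. The 3 proteins belong to no common pathway, and the genes lie on different chromosomes.

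In GRCm38, Lrg1 (ENSMUSG00000037095) lies at chr17:56119678-56122001 with 1 annotated transcript of 2 exons. Ffar2 (ENSMUSG00000051314) lies at chr7:30818348-30823775 with 6 transcripts, and Sorl1 (ENSMUSG00000049313) spans 159578 bases at chr9:41964720-42124297 with a coding transcript of 48 exons. All 3 genes are on the minus strand. Sorl1 is overlapped by Gm16214, an antisense gene that had 0 reads in both subpopulations. The libraries were made from the 3′ ends of mRNA, so the reads do not tell the transcripts of a gene apart. Because the 3 genes were higher together in F4/80lo Mϕ, the bases just before their transcription start sites are shown to see whether short motifs are shared. The sequences are from RefSeq, build GRCm38.p6, minus strand, 5′ to 3′, and capitals mark the motif matches that lie in the printed bases.
Lrg1, chr17:56122002-56122196: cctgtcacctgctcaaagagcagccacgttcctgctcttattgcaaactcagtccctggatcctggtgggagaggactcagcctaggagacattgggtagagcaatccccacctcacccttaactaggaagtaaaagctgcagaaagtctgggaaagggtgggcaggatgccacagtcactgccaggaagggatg
Ffar2, chr7:30823776-30824025: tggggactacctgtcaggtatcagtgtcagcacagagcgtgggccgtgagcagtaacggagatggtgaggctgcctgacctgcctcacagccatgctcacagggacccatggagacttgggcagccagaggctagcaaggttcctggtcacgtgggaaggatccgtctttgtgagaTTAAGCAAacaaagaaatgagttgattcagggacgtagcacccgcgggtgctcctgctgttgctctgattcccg
Sorl1, chr9:42124298-42124547: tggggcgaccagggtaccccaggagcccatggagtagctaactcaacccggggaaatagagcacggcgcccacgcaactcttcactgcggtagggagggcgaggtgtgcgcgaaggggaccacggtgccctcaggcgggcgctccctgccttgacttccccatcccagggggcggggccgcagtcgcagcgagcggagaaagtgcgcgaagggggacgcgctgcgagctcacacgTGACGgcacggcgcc
For Lrg1 only the 195 bases before the 5′ end annotated by GENCODE are printed, because the RefSeq start site lies 55 bases inside the gene. RefSeq lists 1 start site for Lrg1, 4 for Ffar2 and 2 for Sorl1, and 1 window was searched for each.

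Both strands of the 300 bases around each start site (250 before, 50 after) were searched for 5 motifs. The C/EBP motif TTGCNNAA matched once before Ffar2, as TTAAGCAA, and is held by 10.8% of all 32544 promoters. The cAMP response element half-site TGACG matched once before Sorl1, at positions -15 to -11, and is held by 20.9% of promoters. An NF-kappaB motif (GGG, any 3 bases, TTCC) matched once for Lrg1, as GGGCTCTTCC at positions -34 to -25 and so outside the printed bases, and is held by 5.56%. The STAT motif TTCNNNGAA (8.33% of promoters) and the ETS motif GAGGAAG (13.4%) matched in none of the 3 windows. No motif was thus common to any pair of the genes. Base composition differed as well, with 37 CpG dinucleotides in the Sorl1 window, 11 in that of Ffar2 and 2 in that of Lrg1, against a median of 7 over all promoters.

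Sequencing depth was 426624 to 3389448 reads on genes per library, and a count of 0 allows up to 0.885 to 7.03 reads per 1000000 reads on genes (rpm). The libraries numbered 3 stood apart from those numbered 1 and 2. The share of reads on Gm42418, a gene that overlaps ribosomal RNA, was 14.3% and 7.82% in the VEH libraries numbered 3 of F4/80lo and F4/80hi Mϕ, 2.65% and 2.86% in the CIII libraries numbered 3, and at most 0.579% in the others. In F4/80hi Mϕ the normalized count of Adgre1, the gene of F4/80, was 404 and 351 in the VEH and CIII libraries numbered 3 and 1025 to 1207 in the other 4. The summed level of 9 markers of resident large peritoneal Mϕ was 742 and 1028 rpm in these 2 libraries and 4161 to 5574 in the others. Classical monocyte markers summed to 2306 rpm in the VEH library numbered 3 and to 363 to 1306 in the other F4/80hi libraries. The part of these differences in the results was not tested, and the F4/80hi comparison is also given for the libraries numbered 1 and 2 alone.

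In F4/80lo Mϕ, Lrg1 had normalized counts of 32.6, 12.8 and 15.7 in the VEH libraries and of 118, 73.1 and 116 in the CIII libraries. A normalized count is the number of reads on a gene divided by the size factor of its library. The lowest CIII library was above the highest VEH library, and the means were 20.4 ± 10.7 and 103 ± 25.5 (SD, n = 3 each). The log2 difference, on log2 of the normalized count plus 1, was 2.36 with a standard error (SE) of 0.46, a 5.12-fold higher level with CIII. Within the replicate numbers 1, 2 and 3 it was 1.83, 2.42 and 2.81. In bulk samples of sorted cells, fewer cells that carry an mRNA and less of it per cell cannot be told apart.

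Ffar2 had the lowest level of the 3 genes in VEH F4/80lo Mϕ, with normalized counts of 8.15, 8.99 and 2.66 from only 7, 7 and 8 reads. In the CIII libraries the normalized counts were 182, 34.3 and 53.1, from 256, 15 and 48 reads. All CIII libraries were above all VEH libraries, but the first CIII library was far above the other two, and the means were 6.60 ± 3.43 and 89.6 ± 80.2 (SD, n = 3 each). The log2 difference was 3.34 (SE 0.68), or 10.1-fold. Without the first CIII library it was 2.65, or 6.29-fold, and within the replicate numbers it was 4.32, 1.82 and 3.88. Ffar2 was thus the gene with both the largest difference and the widest spread among the 3.

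Sorl1 had normalized counts of 39.6, 37.2 and 32.6 with VEH and of 92.2, 126 and 90.6 with CIII in F4/80lo Mϕ. The VEH libraries lay close together, at 36.5 ± 3.52 against 103 ± 19.8 with CIII (SD, n = 3 each). The log2 difference was 1.46 (SE 0.36), or 2.75-fold, and 1.20, 1.73 and 1.45 within the replicate numbers. Sorl1 had the smallest difference of the 3 genes and the narrowest spread.

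The treatments did not overlap in F4/80lo Mϕ for any of the 3 genes, as for 3.82% of the 10718 genes compared (409 genes higher with CIII without overlap). The 3 genes were higher within all 3 replicate numbers, as were 13.1% of genes. These counts follow from how the genes were chosen and carry no test. Ordered by the ratio of the difference to its error, Lrg1, Ffar2 and Sorl1 held places 1, 2 and 3 among the 409 genes. The genes just behind them were C4b, a complement component, with a log2 difference of 1.63, Itgb7, the integrin beta 7 chain, with 1.33, and Fcgrt, a chain of the neonatal Fc receptor, with 1.11. The choice had no numeric threshold.

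**Figure D1:**
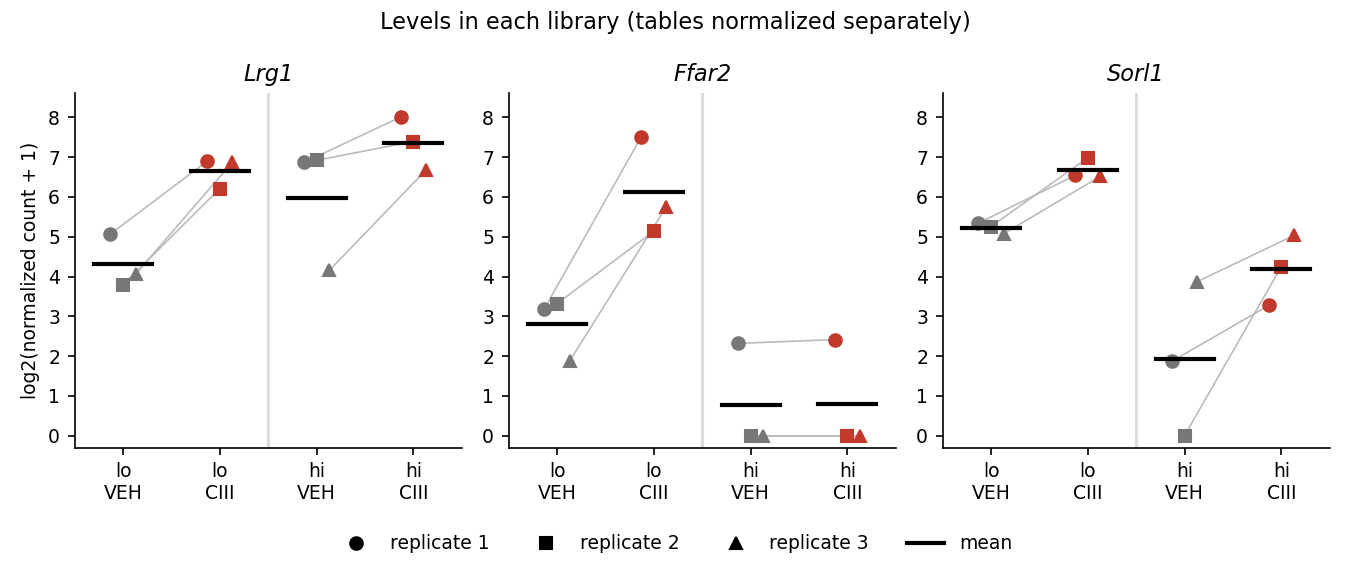
Log2 of the normalized count plus 1 (y axis) of Lrg1, Ffar2 and Sorl1 in each of the 12 libraries, by subpopulation (lo, F4/80lo; hi, F4/80hi) and treatment (x axis). Symbols stand for the replicate number, lines join libraries of the same number, and bars are means of the 3 log2 values; in F4/80lo the CIII libraries lie above the VEH libraries for all 3 genes, while in F4/80hi Lrg1 and Sorl1 overlap and Ffar2 has reads only in the libraries numbered 1.

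In F4/80hi Mϕ, Lrg1 was higher with CIII within each replicate number, but the difference did not pass the test. The normalized counts were 116, 120 and 16.8 with VEH and 257, 167 and 101 with CIII, at means of 84.2 ± 58.4 and 175 ± 78.2 (SD, n = 3 each). The VEH library numbered 3 was far below the other two, and the CIII library numbered 3, the lowest of its group, fell below the VEH libraries numbered 1 and 2, so the groups overlapped. The log2 difference was 1.38 (SE 0.72), or 2.60-fold, with an unadjusted p of 0.0861 and an adjusted p of 0.992 in limma. The exact two-sided permutation test gave p = 0.3, where 0.1 is the smallest p that 3 against 3 libraries allow. Within the replicate numbers the difference was 1.14, 0.47 and 2.52, and without the VEH library numbered 3 it was 0.47 (limma unadjusted p = 0.302). In the libraries numbered 1 and 2 alone it was 0.81, with a limma adjusted p of 0.685.

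Sorl1 was also higher with CIII within each replicate number in F4/80hi Mϕ, from few reads. With VEH there were 2, 0 and 13 reads, or normalized counts of 2.66, 0 and 13.6, and with CIII there were 12, 15 and 58 reads, or 8.66, 18.0 and 31.7. The CIII library numbered 1 was below the VEH library numbered 3, so the groups overlapped, at means of 5.43 ± 7.22 and 19.5 ± 11.6 (SD, n = 3 each). The log2 difference was 2.27 (SE 0.98), or 4.83-fold, with an unadjusted p of 0.0459 and an adjusted p of 0.992 in limma, and the exact two-sided permutation test gave p = 0.2. The size of the difference depended on how low counts were treated, since a pseudocount of 5 in place of 1 gave 1.34. It was 1.31 without the VEH library numbered 2, which had 0 reads, 3.25 without the VEH library numbered 3, and 2.83 in the libraries numbered 1 and 2 alone (limma adjusted p = 0.685). With either treatment the library numbered 3 had the lowest Lrg1 and the highest Sorl1.

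Ffar2 was near the limit of detection in F4/80hi Mϕ. It had 3 reads in the first VEH library, 6 in the first CIII library and 0 in the other 4, where a count of 0 allows up to 4.34 rpm. The mean normalized count was below the minimum of 3, so Ffar2 was not tested, and no fold is given. Whether the treatment changed Ffar2 in these cells was not detectable at this depth.

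Of 10499 genes tested in F4/80hi Mϕ, 0% passed an adjusted p of 0.05 in limma, and neither did Lrg1 and Sorl1. At an unadjusted p under 0.05 limma called 413 genes (3.93%, or 1.29% higher with CIII), Sorl1 among them. At the same threshold edgeR called 408 genes with 0 after adjustment, and Sorl1 was not among them (edgeR unadjusted p = 0.119). Both Lrg1 and Sorl1 were higher within all 3 replicate numbers, as were 17.2% of the genes tested, but neither had its CIII libraries all above its VEH libraries, as 4.73% of genes had. The replicate number was also used as a block. The labels do not give the libraries as paired, and the check of pairing set only number 3 apart. With the block, the unadjusted p in limma was 0.00333 for Lrg1 and 0.0094 for Sorl1. Under this block 11.3% of genes were below 0.05 (higher with CIII, 5.07%), and the adjusted p was 0.199 for Lrg1 and 0.266 for Sorl1. Whether the difference with CIII was larger in one subpopulation than in the other was not tested, because the F4/80lo values had chosen the genes.

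**Figure D2:**
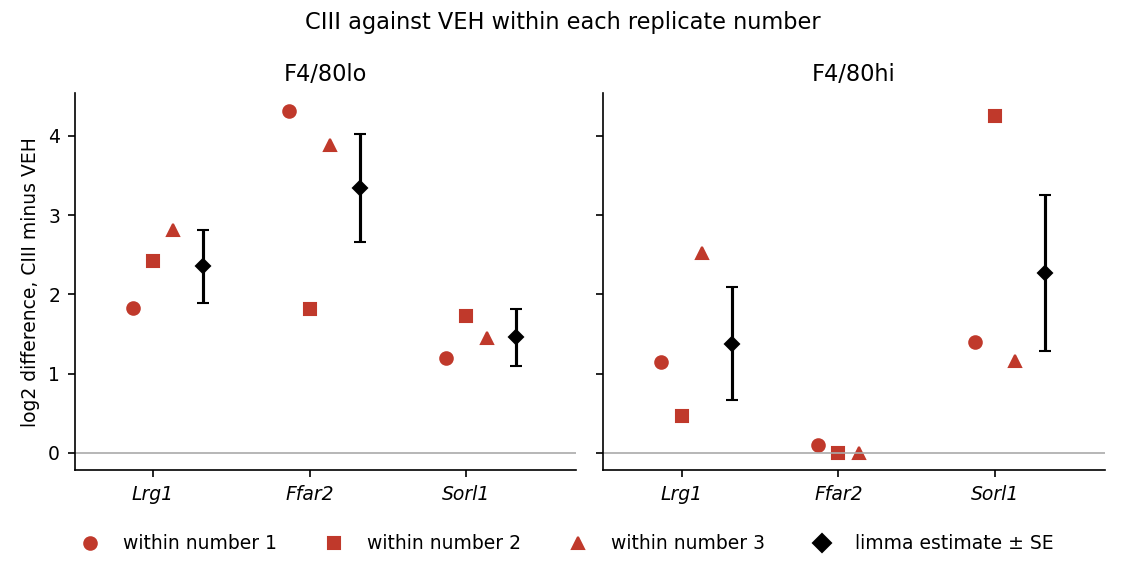
Log2 difference of CIII minus VEH (y axis) of the 3 genes in F4/80lo (left) and F4/80hi Mϕ (right). Coloured symbols are the differences within replicate numbers 1, 2 and 3 and black diamonds the limma estimates with their SE; in F4/80hi the Lrg1 values run from 0.47 to 2.52, and no limma estimate is drawn for Ffar2, which was not tested there.

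Levels in the 2 subpopulations were set side by side in rpm, because the normalized counts of each had been scaled separately. They are a description, with no test. For Lrg1 the order of the group means was VEH F4/80lo (20.5 ± 11.2), VEH F4/80hi (89.5 ± 64.6), CIII F4/80lo (108 ± 29.1) and CIII F4/80hi (193 ± 89.2; SD, n = 3 each). Each group overlapped with its neighbour in this order. The mean was 4.37-fold higher in F4/80hi than in F4/80lo with VEH and 1.78-fold higher with CIII, and the subpopulations overlapped with either treatment. With VEH the overlap came from the F4/80hi library numbered 3, at 15.2 rpm against 120 and 133 in the others.

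Sorl1 was at the opposite side, with the higher level in F4/80lo Mϕ. The order of the means was VEH F4/80hi (5.04 ± 6.49), CIII F4/80hi (21.0 ± 11.9), VEH F4/80lo (36.8 ± 6.86) and CIII F4/80lo (108 ± 18.3 rpm; SD, n = 3 each). Only the last step separated neighbours without overlap. The F4/80lo mean was 7.30-fold that of F4/80hi with VEH and 5.13-fold with CIII, or 29.5-fold and 7.66-fold in the libraries numbered 1 and 2 alone, where VEH F4/80hi Mϕ had 2 reads. In both treatments all F4/80lo libraries were above all F4/80hi libraries. With VEH this was so for 7.6% of 11120 genes and with CIII for 6.47%.

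Ffar2 was mostly found in F4/80lo Mϕ. The order of the means was VEH F4/80hi (1.38 ± 2.39), CIII F4/80hi (1.60 ± 2.77), VEH F4/80lo (6.87 ± 3.98) and CIII F4/80lo (95.9 ± 88.0 rpm; SD, n = 3 each). Only the last step separated neighbours in this order. With CIII, 319 reads in F4/80lo Mϕ stood beside 6 in F4/80hi Mϕ, and 256 of the 319 came from the first library. That library had 197 rpm and the other two 35.2 and 55.6, all above the highest F4/80hi library at 4.79. With VEH, 22 reads stood beside 3, and the libraries overlapped.

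The 3 genes did not follow each other across all 12 libraries. On log2 of rpm plus 1, Pearson's r was 0.10 between Lrg1 and Ffar2, -0.19 between Lrg1 and Sorl1 and 0.66 between Ffar2 and Sorl1. Over the 6 F4/80lo libraries the values were 0.91, 0.90 and 0.87, which the choice of the genes by their treatment difference largely fixes. Over the 6 F4/80hi libraries they were 0.44, -0.11 and -0.17. The points share library, depth and subpopulation, and the values are descriptions.

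For each gene the 5 genes with the most similar pattern over the 12 libraries were taken by Pearson's r among 10097 genes measured in both subpopulations. For Lrg1 these were Agtrap (0.91), Scarb2 (0.90), Ctnnb1 (0.90), Prtn3 (0.90) and Emilin2 (0.89). They were lowest in VEH F4/80lo and highest in CIII F4/80hi Mϕ, as Lrg1 was, which follows from how they were picked. Prtn3, the neutrophil serine protease proteinase 3, had means of 5.24 and 27.2 rpm in VEH and CIII F4/80lo and of 23.9 and 48.3 in VEH and CIII F4/80hi Mϕ. Scarb2, a lysosomal membrane protein, went from 177 to 348 and from 276 to 535 rpm in the same groups.

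For Sorl1 the correlations were tighter, with 0.99 for Alpk1, a kinase that senses bacterial sugars, 0.97 for Spn, the sialoglycoprotein CD43, 0.97 for Cic, 0.95 for Cx3cr1, the fractalkine receptor, and 0.95 for Gpr132. Mean Cx3cr1 levels were 238 and 661 rpm in VEH and CIII F4/80lo and 33.3 and 105 in VEH and CIII F4/80hi Mϕ, the same order of groups as for Sorl1, which again follows from the choice. For Ffar2 the closest genes were Siah2 (0.88), Kbtbd11 (0.87), Zbtb7b (0.86), Itgax (0.85) and Dusp16 (0.85). Itgax encodes CD11c, and its mean was 57.1 and 58.8 rpm in VEH and CIII F4/80lo against 4.52 and 2.51 in F4/80hi Mϕ. With CIII the log2 differences in F4/80lo Mϕ were 0.32 for Siah2, 1.15 for Kbtbd11, 0.73 for Dusp16, 0.65 for Zbtb7b and 1.16 for Itgax. Without the VEH library numbered 3, that of Siah2 was 0.05 and that of Itgax turned to -0.29. In F4/80hi Mϕ the differences were 0.15 for Siah2, -0.91 for Kbtbd11, 0.32 for Dusp16, 0.08 for Zbtb7b and -0.71 for Itgax. Ffar2 had 0 reads in 4 of the 6 F4/80hi libraries, which limits what its correlations rest on.

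**Figure D3:**
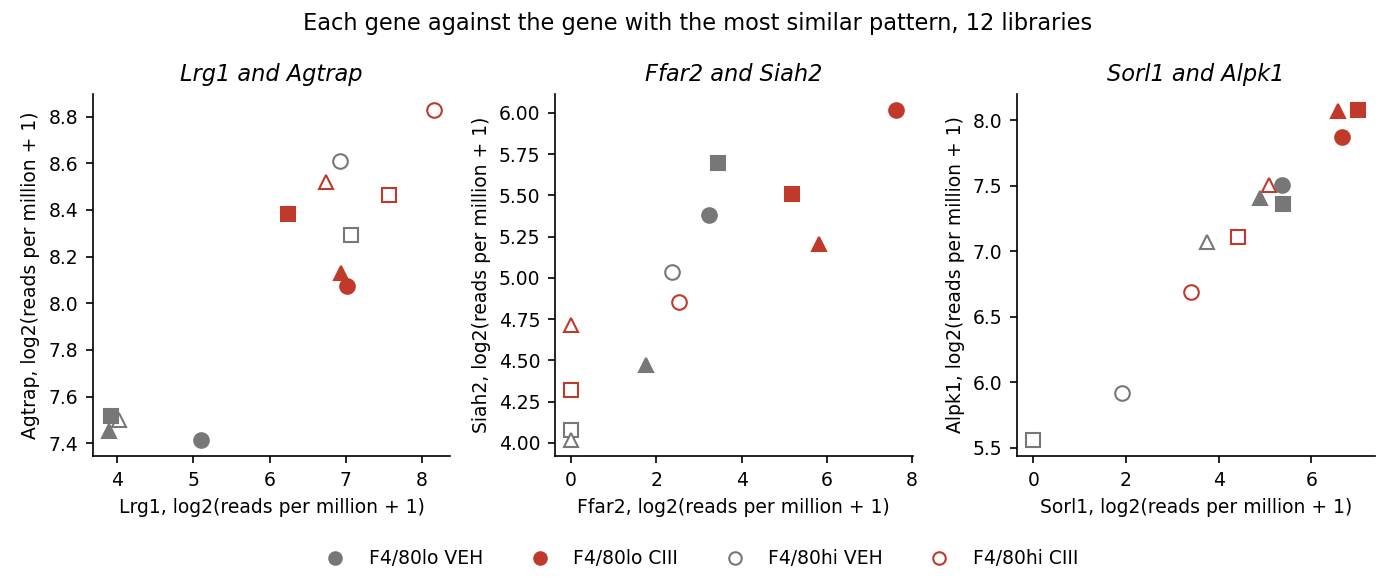
Log2 of rpm plus 1 of Lrg1, Ffar2 and Sorl1 (x axes) against Agtrap, Siah2 and Alpk1 (y axes), the gene with the highest Pearson's r to each, in 12 libraries. Filled symbols are F4/80lo and open symbols F4/80hi Mϕ, grey VEH and red CIII, and circles, squares and triangles are replicate numbers 1, 2 and 3; the points of Sorl1 and Alpk1 lie closest to a line, at an r of 0.99.

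The genes near the 3 loci were read in the same comparison. Within 100 kb of Lrg1 lie 10 protein-coding genes, 7 of which were tested in each subpopulation. Only 1 of the 7, Sema6b at 1084 bases, was higher with CIII. Its log2 differences were 0.57 in F4/80lo Mϕ and 1.53 in F4/80hi Mϕ, with overlap between the treatments. With 1 library left out the former ran from 0.03 to 1.16, and the latter was 0.66 without the VEH library numbered 3. Plin5, at 2082 bases, and Plin4 had 0 reads. Of 11 genes near Ffar2, 3 were tested in F4/80lo Mϕ and 2 in F4/80hi Mϕ, and none had a log2 difference above 0. Lower with CIII without overlap were Mydgf near Lrg1 in both subpopulations (log2 differences of -0.27 and -0.83) and, in F4/80hi Mϕ, Hdgfl2 near Lrg1 (-0.46) and Tmem147 near Ffar2 (-1.09), where 8.73% of all genes in F4/80lo and 10.5% of those in F4/80hi Mϕ did not overlap in either direction. Ffar3, the other receptor for short-chain fatty acids, had 0 reads and Ffar1, a receptor for longer fatty acids, had 8 reads in F4/80lo Mϕ and 1 in F4/80hi Mϕ. No protein-coding gene lies within 100 kb of Sorl1.

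The genes of the pathways around the 3 were described by 8 lists with 92 genes. In F4/80lo Mϕ 72 of the 92 were tested, of which 45 were higher and 27 lower with CIII, and their median log2 difference was 0.21 against -0.05 over all genes. In F4/80hi Mϕ 73 were tested, 42 higher and 31 lower, with medians of 0.12 and 0.05. None passed an adjusted p of 0.05 in limma in either subpopulation. At an unadjusted p under 0.05 there were 2 genes in each (2.78% and 2.74%), against 2.7% and 3.93% of all genes. The share of list genes whose treatments did not overlap was 5.56% in F4/80lo Mϕ and 6.85% in F4/80hi Mϕ, against 8.73% and 10.5% of all genes.

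Of 14 tested genes of the IL-6 and STAT3 pathway, which induces Lrg1, 13 were higher with CIII in F4/80lo Mϕ and 13 in F4/80hi Mϕ, where 45.9% and 53.5% of all genes were higher. The medians were 0.51 and 0.58. Stat3, the transcription factor of the pathway, went from means of 271 to 423 normalized counts in F4/80lo (log2 difference 0.61) and from 179 to 296 in F4/80hi Mϕ (0.75), with overlap in both. Il6st, the shared receptor chain gp130, did not overlap in either subpopulation, at 0.45 and 0.60, and the kinase Jak1 did not in F4/80hi Mϕ, at 0.56. Jak2, another kinase bound to these receptors, did not overlap there and had 31.9, 11.8 and 30.4 normalized counts with VEH and 54.1, 38.5 and 72.8 with CIII in F4/80hi Mϕ, a log2 difference of 1.20 (limma unadjusted p = 0.0356, adjusted p = 0.992). Without the replicate block, 1 of the 14 genes had an unadjusted limma p under 0.05 in each subpopulation, against 2.7% and 3.93% of all genes. With the block, it was 4 of the 14 in F4/80lo Mϕ and 7 in F4/80hi Mϕ, against 6.89% and 11.3% of all genes. After adjustment it was 0 in both, with or without the block.

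The TGF-beta list had 9 of 14 genes higher in F4/80lo Mϕ and 10 of 14 in F4/80hi Mϕ. Smad3, a signal carrier of TGF-beta receptors, had 38.4, 59.0 and 27.3 normalized counts with VEH and 93.6, 110 and 54.2 with CIII in F4/80lo Mϕ, a log2 difference of 1.04 with overlap. Smad5, which carries BMP signals, did not overlap there, at 0.63. The ligand Tgfb1 was at -0.58 in F4/80lo Mϕ with overlap.

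Around Ffar2, Hcar2, a related receptor for butyrate and ketone bodies, was the only other receptor of its list that could be tested, at log2 differences of 1.12 in F4/80lo Mϕ and 1.82 in F4/80hi Mϕ with overlap. In the libraries numbered 1 and 2 alone these were 0.63 and 0.59, and without the VEH library numbered 3, which had 0 reads in both, they were -0.34 and 0.58. Ffar3 and Hcar1 had 0 reads. The Ffar2 signalling list holds G protein subunits, beta-arrestins, phospholipases C and receptor kinases. Of its 16 tested genes 6 were higher and 10 lower in F4/80lo Mϕ. In F4/80hi Mϕ 5 were higher and 11 lower, where scaling to the same total gave 9 and 7. Gnb1, a G protein beta subunit, was the only one without overlap, at -0.28 in F4/80lo Mϕ. Of 4 transporters of short-chain fatty acids 3 were tested in each subpopulation, with 1 higher in F4/80lo Mϕ and 2 in F4/80hi Mϕ, and 2 and 1 in the libraries numbered 1 and 2 alone.

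Around Sorl1, the related VPS10 receptor Sort1 was at log2 differences of 0.58 in F4/80lo Mϕ and 1.06 in F4/80hi Mϕ with overlap. In the libraries numbered 1 and 2 alone these were 0.23 and 0.09, and without the VEH library numbered 3 the F4/80hi value turned to -0.27. Sorcs2, tested in F4/80hi Mϕ only, was at -0.11 there, or at -0.48 in the libraries numbered 1 and 2 alone. Sorcs1 and Sorcs3 had 0 reads. The retromer and GGA list had 8 of 14 genes higher in F4/80lo Mϕ and 4 of 14 in F4/80hi Mϕ. Under scaling of the libraries to the same total the latter count was 8 of 14. Snx27, a retromer adaptor, did not overlap in F4/80hi Mϕ, at 82.4, 52.3 and 83.9 normalized counts with VEH and 125, 137 and 131 with CIII, a log2 difference of 0.87. Gga2, a sorting adaptor of the Golgi apparatus, did not overlap in F4/80lo Mϕ and was lower with CIII, at 20.9, 20.5 and 25.3 with VEH and 17.7, 16.0 and 17.7 with CIII, a log2 difference of -0.35. App, the amyloid precursor protein, did not overlap in F4/80hi Mϕ, at 0.61, and was at -0.02 in F4/80lo Mϕ. With 1 library left out the latter ran from -0.34 (without the CIII library numbered 1) to 0.60 (without the CIII library numbered 2). Of 9 tested genes of the cargo and LDL receptor list 6 were higher in each subpopulation, and 5 in F4/80lo Mϕ and 4 in F4/80hi Mϕ in the libraries numbered 1 and 2 alone.

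Markers of cells that can carry the 3 mRNAs were read in the same libraries. Neutrophils are removed from the F4/80lo gate by Ly6G, and their genes were low: of 16 markers 5 were tested in F4/80lo Mϕ, Ngp, Camp and Ctsg had 0 reads, Ly6g had 2 and Cxcr2 had 1. The summed level of the list was 50.8 to 83.7 rpm with VEH and 68.4 to 86.7 with CIII, so it did not separate the treatments. S100a8, an abundant protein of neutrophils, was at a log2 difference of -0.95, whereas Prtn3 was at 2.38, with normalized counts of 1.28 to 10.5 with VEH and 18.8 to 29.7 with CIII. In F4/80hi Mϕ the summed level was 70.8 to 144 with VEH and 68.8 to 160 with CIII, and 7 of the markers, among them Ly6g, Mpo and Elane, had 0 reads. There S100a8 was lower with CIII without overlap, at 39.9, 24.8 and 81.8 normalized counts with VEH and 12.3, 6.01 and 13.7 with CIII (limma unadjusted p = 0.00568, adjusted p = 0.992), and Prtn3 was at 1.30 with overlap, or at 0.63 without the VEH library numbered 3.

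Of 7 markers of patrolling monocytes 4 were higher and 3 lower with CIII in F4/80lo Mϕ, and none passed an adjusted p of 0.05. Their summed level was 490, 669 and 309 rpm with VEH and 1136, 1118 and 990 with CIII, without overlap. Without Cx3cr1, the largest part of it, the sum was 220, 321 and 214 with VEH and 304, 321 and 636 with CIII, with overlap. Cx3cr1 (log2 difference 1.49), Spn (0.61) and Eno3 (1.78) were higher without overlap, as were 3.82% of all genes. Cx3cr1 was at 1.02 without the VEH library numbered 3, and Eno3 at 1.03 without the VEH library numbered 2. Dendritic cell markers were higher in 6 of 6 tested genes with a median of 1.04, and in 4 of 6 with a median of 0.54 in the libraries numbered 1 and 2 alone. Btla, a receptor of dendritic cells and lymphocytes, was higher without overlap (2.08). Their summed level was 8.56 to 393 rpm with VEH, lowest in the library numbered 3, and 90.4 to 230 with CIII. Eosinophil, mast cell and mesothelial markers summed to at most 16.9 rpm, and B cell markers to 22.1 to 136 with VEH and 27.8 to 218 with CIII. T and NK cell markers summed to 15.3 to 41.8 and 16.2 to 39.8. The B cell gene Ebf1 was higher (1.87) and the NK cell gene Nkg7 lower (-2.29) without overlap in F4/80hi Mϕ, both from normalized counts of at most 11.5. There the 2 dendritic cell markers tested were lower with CIII, with a median of -0.83. The summed level of that list in F4/80hi Mϕ was 9.66 to 26.0 rpm with VEH and 2.71 to 14.4 with CIII. The part of patrolling monocyte or dendritic cell markers in the levels of Lrg1, Ffar2 and Sorl1 was not tested.

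The markers of the sort were present in the F4/80lo libraries, where 5 of 11 Mϕ and sort markers were higher with CIII without overlap, against 3.82% of all genes. Among the 5 were Csf1r, the receptor of the growth factor CSF1, and the MHCII genes H2-Aa, H2-Ab1 and H2-Eb1. The VEH library numbered 3 was far below the others in this list, at a summed level of 12199 rpm against 29178 and 31167, and H2-Aa had 680 normalized counts there against 4603 and 4100. Without that library the log2 differences of H2-Aa, H2-Ab1 and H2-Eb1 fell from 1.35, 1.29 and 1.34 to 0.46, 0.52 and 0.83. Of the 9 resident Mϕ markers 2 were higher and 7 lower with CIII in F4/80hi Mϕ, with a median of -0.14, and in the libraries numbered 1 and 2 alone the counts were the same with a median of -0.35. Mertk, 1 of the 2, was higher without overlap (0.77), as were 4.73% of all genes. The patrolling monocyte sum in F4/80hi Mϕ was 109, 176 and 210 with VEH and 200, 185 and 547 with CIII, with the highest value in the CIII library numbered 3, which also had the highest Sorl1. Among the F4/80hi libraries the resident Mϕ sum was lowest in those numbered 3, which also had the lowest Lrg1 of each treatment. The part of these markers in the F4/80hi values of Lrg1 and Sorl1 was not tested.

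**Figure D4:**
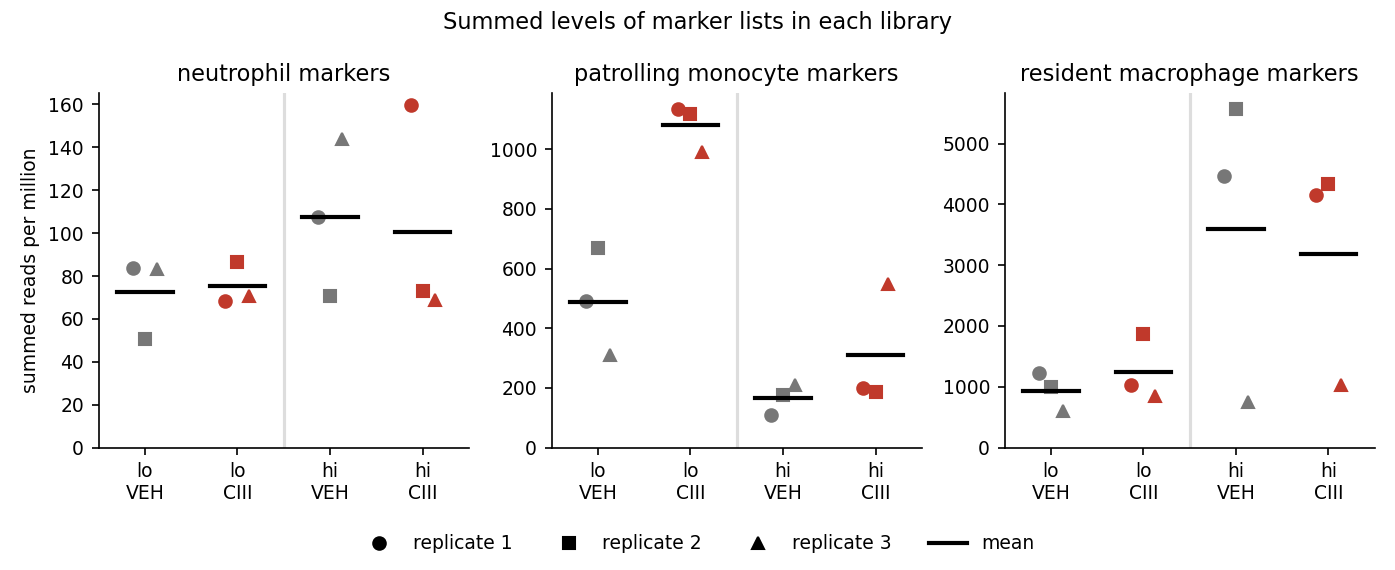
Summed rpm (y axes, which differ in scale) of neutrophil, patrolling monocyte and resident large peritoneal Mϕ markers in each of the 12 libraries, by subpopulation (lo, F4/80lo; hi, F4/80hi) and treatment. Symbols stand for the replicate number and bars for the mean; neutrophil sums overlap between the treatments, patrolling monocyte sums, which include Cx3cr1, do not in F4/80lo, and within F4/80hi the resident Mϕ sums are lowest in the libraries numbered 3.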

How the data were processed

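RNA was measured in 12 libraries of sorted peritoneal Mϕ, 3 per group, with groups and replicate numbers taken from the labels. Lexogen QuantSeq 3′ libraries with unique molecular identifiers were run by the authors through the Bluebee pipeline with Bbduk, STAR on GRCm38, HTSeq-count and DESeq2. The deposited values are a signal, namely counts per gene divided by 1 size factor per library, set by the authors separately for each subpopulation. Tool versions are not given in the sources used here. All values (100%) were whole multiples of 1 read within a tolerance of 0.01, so whole reads and reads per 1000000 (rpm) were recovered.

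A symbol and coordinates (GENCODE vM21) were found for 47224 of 47643 identifiers. Genes whose mean over the 6 libraries reached 3 normalized counts were tested within each subpopulation with limma 3.58.1 (R 4.3.3, two-sided, trend) on log2 of the normalized count plus 1, with Benjamini-Hochberg adjustment over all genes tested. edgeR 4.0.16 on the recovered reads was an alternative. The scripts were tested on simulated data. Exact permutation tests were computed with scipy 1.17.1. Limits for a count of 0 (3 reads) cover counting error only.

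The members and gene lists were chosen with earlier results of these data known. Named are the 3 genes, list genes whose treatments did not overlap in a subpopulation (up to 4 per list, by smallest p) or that define a list, the 5 genes most like each member and protein-coding genes within 100 kb. Stat3, Smad3, Tgfb1 and the genes ranked just behind the 3 were named after their values were seen. Pairing was checked from the deviations of libraries from their group means: libraries of the same number correlated at 0.12, 0.24 and 0.50 in F4/80lo and at 0.22, 0.41 and 0.64 in F4/80hi Mϕ, so, each being above 0.1, the numbers were taken to pair the libraries. VEH 1 correlated more with CIII 2 (0.17 and 0.29) than with CIII 1, so the check sets number 3 apart and does not tell numbers 1 and 2 from each other. Besides 15 other settings, the libraries numbered 1 and 2 alone, and other named genes with each library left out, were run as settings added after seeing the data.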

Additional observations from a re-analysis of the deposited data

How the results depend on the processing

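Lrg1, Ffar2 and Sorl1 in F4/80lo and Lrg1 and Sorl1 in F4/80hi Mϕ kept their direction in all 16 alternatives, and neither tested gene passed an adjusted p of 0.05 in any of them. The adjusted p in limma and edgeR ran from 0.199 to 0.9999 for Lrg1 and from 0.266 to 0.9999 for Sorl1 in F4/80hi Mϕ, lowest with the replicate block. The log2 differences ran from 0.47 to 1.85 and from 1.31 to 3.25 there, and in F4/80lo Mϕ from 2.10 to 2.74 for Lrg1, from 2.65 to 3.95 for Ffar2 and from 1.28 to 1.54 for Sorl1.

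The number of genes at an unadjusted p under 0.05 moved most. In F4/80hi Mϕ it was 413, and 1187 with the replicate block, which treats libraries of the same number as paired. It was 822 with library quality weights and 732 in the libraries numbered 1 and 2 alone. When 1 library was left out it was 233 (without VEH replicate 1) to 1037 (without VEH replicate 3). It was 270 without CIII replicate 2. In F4/80lo Mϕ it was 289, and 738 with the replicate block, 468 with no filter, 1228 with weights, 507 in the libraries numbered 1 and 2 alone, and 154 (without VEH replicate 1) to 669 (without VEH replicate 3) when 1 library was left out. At an adjusted p under 0.05, 2 genes were called in F4/80lo Mϕ with weights and 0 otherwise. The block changed no adjusted call. The cause was not tested.

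Equal library totals shifted the all-gene median in F4/80hi Mϕ from 0.05 to 0.15, and relative to it Lrg1 was at 1.33 and Sorl1 at 2.24. It also moved the genes higher with CIII at an unadjusted p under 0.05 from 135 of 413 to 246 of 432 in F4/80hi and from 116 of 289 to 158 of 287 in F4/80lo Mϕ, where quantile normalization gave 151 of 291. The IL-6 and STAT3 list had 14 of 14 genes higher in both subpopulations with equal totals, and 14 and 12 of 14 in the libraries numbered 1 and 2 alone. In those libraries 3 of 8 resident Mϕ markers and 7 of 11 Mϕ and sort markers were higher in F4/80lo Mϕ, against 6 and 8 in all, and 4 of 6 dendritic cell markers were, against 6. Depth limits Ffar2 in F4/80hi Mϕ, with 9 reads in 6 libraries, and in VEH F4/80lo Mϕ, with 22 reads in 3, and Sorl1 in VEH F4/80hi Mϕ, with 15 reads in 3.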
